A study of Homo sapiens with 12 samples.

Results

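The 56 genes described here lie on the long arm of human chromosome 1 in a pair of blocks, 33 in bands 1q25-q32 and 23 in bands 1q42-q44, and make up 56 of the 52889 entries of the ATAC-Seq count table. They were selected on lower read counts at d3 and at d28 than at d0, so these contrasts chose the members and their values in them are a description, given without a test of the choice. All 56 were protein-coding and all 56 were among the 27579 entries that passed the filter on low counts, for which 1 group or more had to average over 2 normalized counts. The cells were HEK293T, a human embryonic kidney line. The d0 cells carried a stably transfected, constitutively expressed MLL-AF4 fusion gene in the Sleeping Beauty vector pSBbi. For d3, the reciprocal fusion AF4-MLL was added to the same cells on the vector pSBTet by transient transfection and induced with 1 µg/ml doxycycline for 48 h. The study describes selection with blasticidin over the same 48 h. The d3 and d28 cells therefore differed from d0 in transfection and selection as well as induction. The d28 cells were labelled with MLL-AF4 alone, and the study describes them as the induced cells grown for another 25 days without doxycycline. Mock cells carried the empty vector pSBTet-GP, without a harvest day in the labels, and each of the 4 groups had 3 samples, which the study calls biological replicates. Nothing in the labels says whether a replicate came from a separate transfection, so that p-values measure only the spread between these samples.

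In ATAC-Seq the transposase Tn5 inserts adapters into DNA that is not wrapped tightly around nucleosomes, and reads therefore collect at active promoters and enhancers and, more thinly, over the whole genome. A read count on a gene is a product of how open its chromatin is and how many copies of the DNA the cells hold. In bulk libraries, fewer DNA copies of a segment, fewer cells carrying a copy and less access per copy cannot be told apart. HEK293T is a line with an abnormal chromosome number. The genes of the blocks have no common function: among them are CDC73 of the PAF1 transcription elongation complex, RNF2 of Polycomb repressive complex 1, GLUL (glutamine synthetase), the mitosis and centrosome genes ASPM, KIF14, CEP350 and CEP170, the DNA repair exonuclease EXO1, the citric acid cycle enzyme FH and the ion channel genes RYR2, KCNT2 and CACNA1E.

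Total counts were 353430 to 501324 in Mock, 648466 to 715327 in d0, 930067 to 1186209 in d3 and 1058754 to 3539937 in d28. The mitochondrially encoded entries took 26.4 to 27.0% of them in Mock, 41.996 to 45.6% in d0, 32.8 to 44.1% in d3 and 63.6 to 68.5% in d28, so that depth and mitochondrial share moved with the groups, and their part in the results was not tested. Nuclear counts, without these entries, ranged from 249386 to 895319, and the block shares below are shares of them. Values below are normalized counts, that is, counts scaled by TMM factors to the mean effective library of the 12 samples. Summed over 6 genes typical of HEK293T (KRT8, KRT18, VIM, NEFL, NEFM, INA) they were 207 to 211 in Mock, 216 to 227 in d0, 216 to 227 in d3 and 176 to 204 in d28. None of these genes passed the test in any of 6 contrasts. Members were shallow: their mean normalized counts ran from 3.31 to 112, with medians of 29.9 in the 1q25-q32 block and 30.1 in the 1q42-q44 block.

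The blocks span chr1:179882285-201884291 (TOR1AIP1 to IPO9) and chr1:233904676-244709033 (SLC35F3 to DESI2) in RefSeq GRCh38.p14. The names of 55 members matched RefSeq symbols and ADSS matched as a synonym of ADSS2. Start regions of 6 members are shown because these genes were called lower than d0 and represent CG-rich and CG-poor starts of the blocks. Each sequence runs 5′ to 3′ on the gene's own strand from 250 bases before to 50 bases after the annotated start, and capitals mark GGGCGG or its reverse complement, the GC box letters. The windows are GLUL (chr1:182391741-182392040, minus strand), BRINP3 (chr1:190477815-190478114, minus strand), RYR2 (chr1:237041934-237042233, plus strand), RGS7 (chr1:241357156-241357455, minus strand), EXO1 (chr1:241847954-241848253, plus strand) and DESI2 (chr1:244652876-244653175, plus strand).
GLUL: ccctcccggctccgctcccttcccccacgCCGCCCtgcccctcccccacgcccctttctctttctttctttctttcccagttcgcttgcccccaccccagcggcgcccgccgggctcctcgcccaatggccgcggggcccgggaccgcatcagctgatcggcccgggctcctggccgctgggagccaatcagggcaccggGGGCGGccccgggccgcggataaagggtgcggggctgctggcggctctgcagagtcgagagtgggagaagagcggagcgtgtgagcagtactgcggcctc
BRINP3: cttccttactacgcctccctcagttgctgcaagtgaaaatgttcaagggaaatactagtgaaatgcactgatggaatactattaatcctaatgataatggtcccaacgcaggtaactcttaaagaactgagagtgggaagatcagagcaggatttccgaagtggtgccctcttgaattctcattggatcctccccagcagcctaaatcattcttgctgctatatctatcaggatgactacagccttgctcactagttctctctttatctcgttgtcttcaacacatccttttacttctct
RYR2: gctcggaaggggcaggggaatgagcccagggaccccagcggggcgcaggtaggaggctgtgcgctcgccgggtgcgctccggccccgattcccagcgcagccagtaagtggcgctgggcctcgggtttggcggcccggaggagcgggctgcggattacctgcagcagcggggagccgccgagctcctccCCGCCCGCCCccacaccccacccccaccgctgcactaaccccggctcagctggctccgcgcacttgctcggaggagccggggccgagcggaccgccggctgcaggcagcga
RGS7: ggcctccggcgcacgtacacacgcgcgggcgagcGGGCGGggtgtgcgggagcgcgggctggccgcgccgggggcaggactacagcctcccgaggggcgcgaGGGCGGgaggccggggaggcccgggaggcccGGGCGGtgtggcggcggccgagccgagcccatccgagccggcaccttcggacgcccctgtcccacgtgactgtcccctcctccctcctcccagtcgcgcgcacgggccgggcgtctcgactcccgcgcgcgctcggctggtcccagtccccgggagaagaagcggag
EXO1: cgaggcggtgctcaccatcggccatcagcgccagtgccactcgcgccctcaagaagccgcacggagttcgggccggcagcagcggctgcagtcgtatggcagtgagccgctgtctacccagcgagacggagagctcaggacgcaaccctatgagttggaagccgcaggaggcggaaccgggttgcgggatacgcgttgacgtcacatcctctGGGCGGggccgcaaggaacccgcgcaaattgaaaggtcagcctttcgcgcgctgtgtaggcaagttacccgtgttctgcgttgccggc
DESI2: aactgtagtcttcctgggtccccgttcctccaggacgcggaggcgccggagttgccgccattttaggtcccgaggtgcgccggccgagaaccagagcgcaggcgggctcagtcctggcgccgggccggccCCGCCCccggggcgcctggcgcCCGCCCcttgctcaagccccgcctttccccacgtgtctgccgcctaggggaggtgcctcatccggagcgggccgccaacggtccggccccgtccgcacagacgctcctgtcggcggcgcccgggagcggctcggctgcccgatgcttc
The window of RGS7 held 46 CG pairs and 3 GC boxes, that of DESI2 held 38 and 2, that of EXO1 held 33 and 1, that of RYR2 held 32 and 2 overlapping, and that of GLUL held 29 and 2. BRINP3, with 4 CG pairs and no GC box, was at the other end, and was the member with the largest fall in the 1q25-q32 block at d28.

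Summed over members, the 1q25-q32 block took 0.267 to 0.276% of nuclear counts in Mock, 0.286 to 0.294% in d0, 0.214 to 0.216% in d3 and 0.212 to 0.223% in d28. These shares rest on 666 to 1998 counts per sample. The widest 95% Wilson interval in d3 or d28 reached from 0.197 to 0.229% and covers counting error only. Since the rule chose the block on d0, d3 and d28, no support is read from the distance to d0. The 6 d3 and d28 samples all lay below the 6 others. The 1q42-q44 block took 0.193 to 0.240% in Mock, 0.232 to 0.250% in d0, 0.137 to 0.158% in d3 and 0.145 to 0.167% in d28, from 523 to 1299 counts a sample. Here too the d3 and d28 samples lay below all d0 and Mock samples, but Mock was spread widely and its replicate 3 stood with d0. The Wilson intervals of d28 replicate 3 (0.153 to 0.181%) and Mock replicate 1 (0.178 to 0.209%) overlapped. In summed normalized counts relative to the mean of d0, the 1q25-q32 members were at 76.4 ± 0.405% in d3 and 75.9 ± 3.17% in d28 (SD, n = 3), and the 1q42-q44 members at 63.5 ± 4.53% and 64.6 ± 3.54%. Mock was at 93.9 ± 1.58% and 88.1 ± 10.2%.

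**Figure D1:**
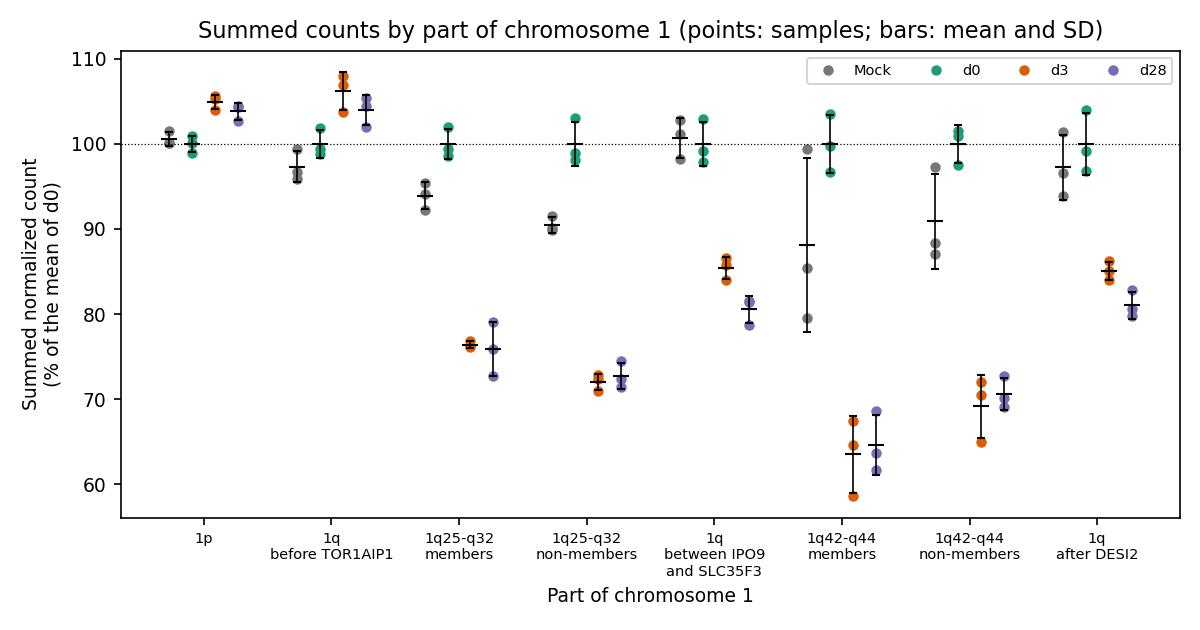
Summed normalized counts of 8 parts of chromosome 1, on the vertical axis as a percentage of the mean of d0, which does not start at 0; each point is a sample, coloured by group, and black bars give mean and SD of 3 samples. Members and non-members of both blocks sit at 63.5 to 76.4% in d3 and 64.6 to 75.9% in d28, 1p and the start of 1q sit at 104 to 106%, and the parts between and after the blocks lie in between.

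Gene by gene, 31 of 33 members of the 1q25-q32 block and 23 of 23 of the 1q42-q44 block had a lower fitted value in d3 than in d0, where 48.3% of all genes tested did. At d28 these were 30 of 33 and 21 of 23, beside 46.9% of all genes. Medians of the log2 fold change were -0.40 and -0.69 in d3 and -0.40 and -0.65 in d28, beside 0.02 and 0.04 over all genes tested. Lower at both days were 29 of 33 and 21 of 23 members (34.4% of all genes). The adjusted p of edgeR's quasi-likelihood test was past 0.05 for 1 and 9 members in d3, beside 0.312% of all genes called lower, and for 2 and 7 members in d28, beside 0.667%. Since the rule used these contrasts, nothing is read from the counts. In d3, 18 and 16 members had groups that did not overlap, all lower (7.12% of all genes), and in d28, 17 and 16 were lower without overlap (7.97%) and 1 member of the 1q42-q44 block was higher (10.2%). A typical member had a standard error of 0.23 on the log2 scale in d3, so that the median of the 1q25-q32 block was less than 2 standard errors for a single gene.

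**Figure D2:**
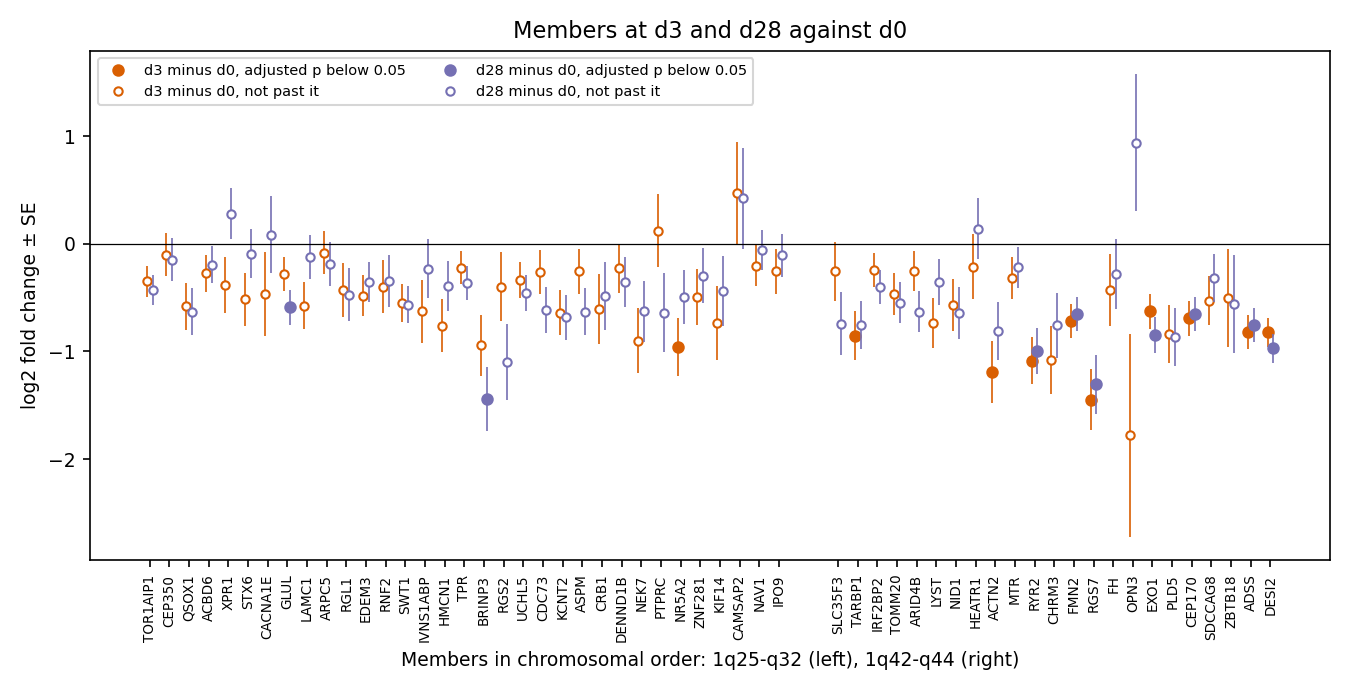
log2 fold change (vertical axis, bars are standard errors of the edgeR fit) of the 56 members in chromosomal order, d3 against d0 in orange and d28 against d0 in purple, filled where the adjusted p was below 0.05. The points of the 1q42-q44 block lie lower, with medians of -0.69 and -0.65 against -0.40 and -0.40, and only OPN3, HEATR1, XPR1, CACNA1E, PTPRC and CAMSAP2 have a point above 0.

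In the 1q25-q32 block the genes with most reads come first. TOR1AIP1, a nuclear membrane protein that binds lamins and torsin, had normalized counts of 129, 135 and 109 in Mock, 103, 105 and 122 in d0, 83.9, 89.9 and 85.6 in d3 and 78.6, 78.05 and 94.6 in d28. The d3 and d28 samples lay below all d0 and Mock samples, and the log2 change from d0 was -0.35 ± 0.14 in d3 and -0.43 ± 0.14 in d28 (SE). GLUL, which makes glutamine from glutamate, had 95.8, 58.02 and 95.98 in Mock, 67.2, 92.2 and 75.1 in d0, 55.4, 65.9 and 71.3 in d3 and 61.2, 43.6 and 43.7 in d28. It overlapped d0 in d3 and not in d28, where the change of -0.59 ± 0.16 was past the test (adjusted p = 0.0318). TPR, a protein of the nuclear pore basket, had 82.3, 73.5 and 70.1 in Mock, 75.9, 87.9 and 82.9 in d0, 69.3, 77.03 and 64.98 in d3 and 62.3, 68.2 and 58.2 in d28. Only its d28 samples lay apart from d0, with -0.37 ± 0.16.

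UCHL5, a deubiquitinase of the proteasome, had 53.9, 69.6 and 88.6 in Mock, 80.9, 69.5 and 68.6 in d0, 59.3, 64.2 and 50.7 in d3 and 54.3, 62.6 and 33.5 in d28. ACBD6, an acyl-CoA binding protein, had 76.3, 64.5 and 71.99 in Mock, 68.4, 56.7 and 60.9 in d0, 53.1, 45.4 and 55.5 in d3 and 48.5, 61.2 and 55.3 in d28. Both were lower in mean at d3 and d28, and ACBD6 overlapped d0 at d28. SWT1, an RNA endoribonuclease, had 55.4, 36.1 and 36.9 in Mock, 67.2, 70.9 and 68.6 in d0, 40.04, 53.1 and 48.3 in d3 and 48.01, 48.5 and 39.3 in d28. Its d0 samples stood above those of the 3 other groups, Mock included, and the d3 and d28 changes from d0 were -0.55 and -0.56.

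EDEM3, which trims mannose from misfolded glycoproteins in the endoplasmic reticulum, had 47.9, 52.9 and 62.8 in Mock, 55.99, 56.7 and 50.5 in d0, 47.7, 29.1 and 38.8 in d3 and 43.8, 37.97 and 48.1 in d28. CEP350, a centrosomal protein, had 53.9, 48.99 and 66.4 in Mock, 38.6, 45.4 and 46.6 in d0, 38.5, 46.2 and 37.2 in d3 and 43.3, 40.8 and 26.2 in d28. NAV1, a microtubule-binding neuron navigator, had 56.9, 43.8 and 42.5 in Mock, 46.03, 62.4 and 42.7 in d0, 43.1, 55.6 and 32.5 in d3 and 50.1, 41.5 and 55.3 in d28. EDEM3 lay below d0 without overlap on both days. The values of CEP350 and NAV1 against d0 were -0.10 and -0.20 in d3 and -0.15 and -0.06 in d28, about as large as their errors of 0.18 to 0.20 or smaller.

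KCNT2, a sodium-activated potassium channel, had 65.9, 55.4 and 44.3 in Mock, 49.8, 41.1 and 49.2 in d0, 26.9, 29.96 and 33.3 in d3 and 30.6, 28.8 and 26.2 in d28. Its d3 and d28 samples lay below every d0 and Mock sample. ARPC5, a subunit of the actin-nucleating Arp2/3 complex, had 37.4, 47.7 and 35.1 in Mock, 53.5, 38.3 and 36.3 in d0, 39.3, 37.7 and 44.4 in d3 and 36.4, 40.8 and 34.9 in d28, with groups that overlapped throughout. LAMC1, the laminin gamma 1 chain, had 46.4, 47.7 and 46.1 in Mock, 47.3, 38.3 and 36.3 in d0, 30.03, 22.3 and 29.3 in d3 and 39.04, 29.5 and 48.1 in d28. It was low in d3 (-0.57 ± 0.22 from d0) and overlapped d0 at d28.

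The members of transcription and chromatin complexes had fewer reads. CDC73 had 32.9, 30.9 and 27.7 in Mock, 46.03, 43.96 and 41.4 in d0, 33.9, 40.2 and 35.7 in d3 and 29.5, 23.9 and 34.9 in d28. Its d28 samples lay below d0 and so did the d3 samples, with -0.62 and -0.26 on the log2 scale, while Mock was at the level of d28. RNF2, the ubiquitin ligase of Polycomb repressive complex 1, had 14.97, 33.5 and 33.2 in Mock, 24.9, 28.4 and 40.1 in d0, 23.1, 19.7 and 27.7 in d3 and 24.8, 23.2 and 26.2 in d28, and d3 and d28 overlapped d0. ASPM, a spindle pole protein, had 31.4, 41.3 and 44.3 in Mock, 39.8, 48.2 and 36.3 in d0, 37.7, 25.7 and 39.6 in d3 and 28.5, 27.4 and 20.4 in d28. It lay below d0 without overlap in d28 (-0.63 ± 0.22) and overlapped in d3. PTPRC, the leukocyte antigen CD45, a gene of blood cells that kidney cells do not use, had 8.98, 7.74 and 11.1 in Mock, 16.2, 15.6 and 10.4 in d0, 17.7, 15.4 and 12.7 in d3 and 10.02, 7.73 and 8.74 in d28, and its values against d0 were 0.12 ± 0.34 in d3 and -0.64 ± 0.37 in d28.

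The other called members of the block were BRINP3 and NR5A2. BRINP3, a neuronal gene of the bone morphogenetic protein and retinoic acid inducible family, had 19.5, 21.9 and 22.1 in Mock, 28.6, 38.3 and 19.4 in d0, 13.1, 19.7 and 11.9 in d3 and 11.6, 10.5 and 7.28 in d28. It fell by 1.44 on the log2 scale in d28 (adjusted p = 4.21e-04), and its d28 samples lay below those of the other groups. NR5A2, a nuclear receptor of liver and pancreas, had 11.98, 27.1 and 33.2 in Mock, 24.9, 34.04 and 32.4 in d0, 17.7, 14.5 and 14.3 in d3 and 22.7, 18.98 and 23.3 in d28. It was called in d3 (-0.96 ± 0.27, adjusted p = 0.0468) and not in d28 (-0.49 ± 0.25). The other 15 members of the block had log2 changes of -0.90 to 0.47 in d3 and -1.10 to 0.42 in d28.

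In the 1q42-q44 block the median changes from d0 were larger. The rule used these contrasts, so the values and calls below are a description. DESI2, a deSUMOylating isopeptidase at the end of the block and its member with the most reads, had 102, 148 and 183 in Mock, 151, 135 and 157 in d0, 95.5, 47.1 and 105 in d3 and 76.5, 77.3 and 68.4 in d28. Replicate 2 of d3 lay far below the other d3 samples. The log2 change was -0.82 ± 0.13 in d3 (adjusted p = 6.81e-06) and -0.97 ± 0.14 in d28 (adjusted p = 6.83e-10), and DESeq2 gave an adjusted p of 0.218 for the d3 value. ADSS, adenylosuccinate synthase of the AMP pathway, had 85.3, 92.8 and 88.6 in Mock, 109, 80.8 and 88.1 in d0, 51.6, 53.9 and 53.1 in d3 and 47.5, 63.3 and 58.2 in d28. All 6 d3 and d28 samples lay below all 6 d0 and Mock samples, with log2 changes of -0.82 ± 0.16 and -0.75 ± 0.16 from d0 (adjusted p = 4.06e-04 and 4.21e-04).

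CEP170, a protein of the centrosome's subdistal appendages, had 65.9, 59.3 and 77.5 in Mock, 90.8, 80.8 and 86.8 in d0, 58.5, 52.2 and 49.1 in d3 and 52.2, 55.5 and 59.7 in d28. FMN2, an actin-nucleating formin, had 62.9, 72.2 and 99.7 in Mock, 90.8, 78.00 and 86.8 in d0, 55.4, 37.7 and 61.8 in d3 and 54.3, 47.8 and 66.98 in d28. EXO1 had 55.4, 51.6 and 51.7 in Mock, 73.4, 76.6 and 82.9 in d0, 46.97, 59.9 and 44.4 in d3 and 41.2, 44.3 and 45.1 in d28. In these 3 genes d3 and d28 lay below d0 without overlap, and the d28 changes were -0.65 ± 0.16, -0.65 ± 0.16 and -0.85 ± 0.17 (adjusted p = 0.00739, 0.00835 and 1.89e-04). The d0 samples of EXO1 also lay above Mock.

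RYR2, the calcium release channel of heart muscle, had 35.9, 37.4 and 55.4 in Mock, 38.6, 55.3 and 54.4 in d0, 26.2, 23.96 and 19.02 in d3 and 23.2, 24.6 and 27.7 in d28. RGS7, a regulator of G protein signalling in neurons, had 17.96, 19.3 and 25.8 in Mock, 34.8, 24.1 and 37.6 in d0, 11.5, 10.3 and 13.5 in d3 and 11.1, 14.8 and 14.6 in d28. In both genes all d3 and d28 samples lay below all d0 and Mock samples, with log2 changes of -1.09 ± 0.22 and -1.45 ± 0.28 in d3 (adjusted p = 7.30e-04 and 4.94e-04) and -0.998 ± 0.21 and -1.31 ± 0.28 in d28 (adjusted p = 8.35e-04 and 6.71e-04). PLD5, a phospholipase D family member, had 29.9, 25.8 and 60.9 in Mock, 31.1, 34.04 and 23.3 in d0, 14.6, 12.8 and 21.4 in d3 and 15.3, 13.4 and 23.3 in d28. The changes from d0 (-0.84 and -0.86) did not pass the test, and Mock replicate 3 stood above its group.

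TARBP1, an RNA methyltransferase, had 19.5, 36.1 and 31.4 in Mock, 37.3, 45.4 and 41.4 in d0, 30.8, 13.7 and 22.98 in d3 and 26.4, 24.6 and 18.9 in d28. ACTN2, the alpha-actinin of muscle Z-discs, had 19.5, 21.9 and 36.9 in Mock, 23.6, 34.04 and 29.8 in d0, 15.4, 10.3 and 11.9 in d3 and 15.3, 20.4 and 11.6 in d28. Both were called in d3 (-0.85 ± 0.23 and -1.19 ± 0.29, adjusted p = 0.0321 and 0.0094) and not in d28 (-0.76 ± 0.22 and -0.81 ± 0.27), though both lay below d0 without overlap there too.

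IRF2BP2, a transcriptional corepressor, had 58.4, 52.9 and 51.7 in Mock, 69.7, 90.8 and 76.4 in d0, 56.97, 69.3 and 72.9 in d3 and 60.7, 61.2 and 53.9 in d28. MTR, methionine synthase, had 55.4, 38.7 and 49.8 in Mock, 39.8, 55.3 and 54.4 in d0, 37.7, 40.2 and 41.2 in d3 and 34.8, 45.00 and 56.8 in d28. TOMM20, an import receptor of the outer mitochondrial membrane, had 61.4, 51.6 and 49.8 in Mock, 64.7, 45.4 and 47.9 in d0, 30.8, 39.4 and 45.2 in d3 and 35.9, 27.4 and 53.9 in d28. MTR overlapped d0 on both days, IRF2BP2 only in d3 and TOMM20 only in d28, and their d3 values against d0 were -0.32, -0.24 and -0.46. ARID4B, a subunit of Sin3 histone deacetylase complexes, had 41.9, 42.5 and 49.8 in Mock, 44.8, 63.8 and 54.4 in d0, 47.7, 47.1 and 41.2 in d3 and 32.7, 34.5 and 40.8 in d28, and lay below d0 without overlap in d28 (-0.63 ± 0.19). FH had 13.5, 21.9 and 12.9 in Mock, 16.2, 15.6 and 18.1 in d0, 13.1, 8.56 and 15.1 in d3 and 13.7, 14.1 and 13.1 in d28, with differences of -0.43 ± 0.33 and -0.28 ± 0.32 that their errors do not separate from 0. The other 8 members of the block had log2 changes of -1.78 to -0.21 in d3 and -0.76 to 0.94 in d28.

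**Figure D3:**
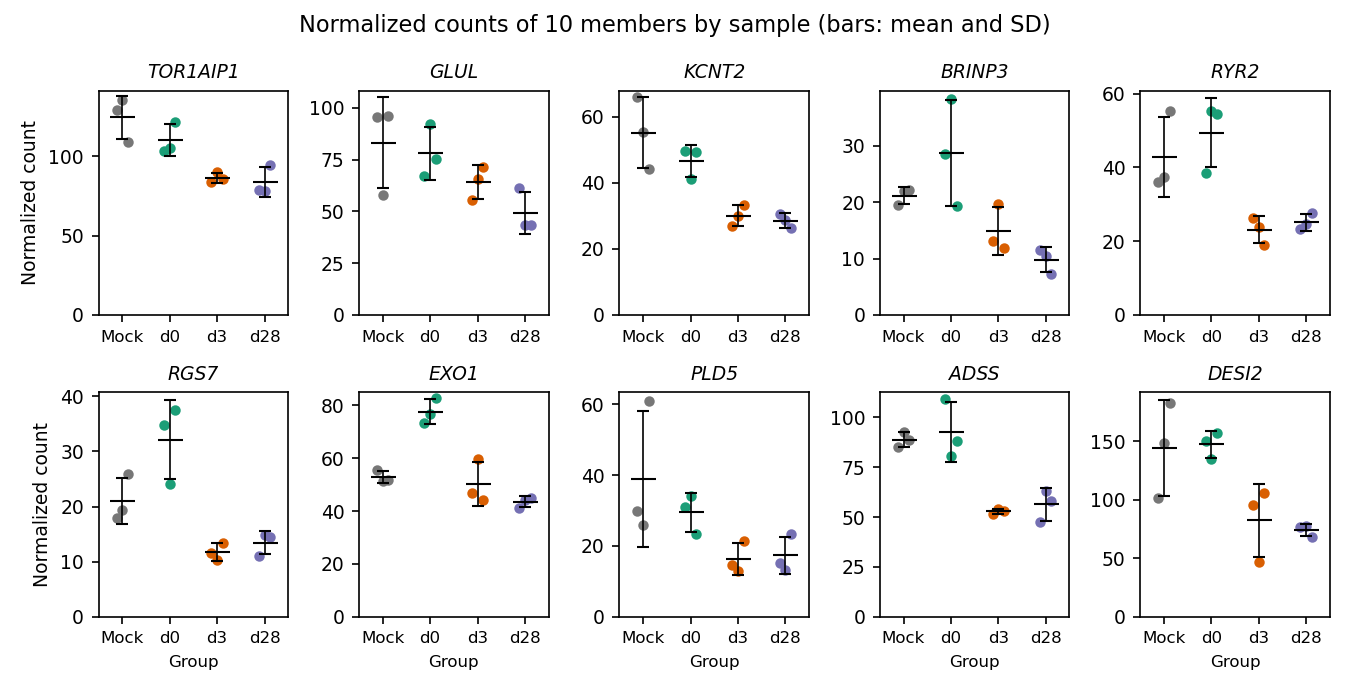
Normalized counts (vertical axes, from 0) of 10 called members in the 12 samples; each point is a sample and black bars give mean and SD of 3. In TOR1AIP1, KCNT2, RYR2, RGS7, PLD5 and ADSS every d3 and d28 sample lies below every d0 and Mock sample. In PLD5 this holds by less than the rounding of the values, between d28 replicate 3 and d0 replicate 3.

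Calls on single members depended on single libraries. Without each of the 12 libraries in turn, RYR2, RGS7 and DESI2 kept their d3 calls and RYR2, EXO1 and DESI2 their d28 calls against d0. In d3, ADSS and CEP170 lost theirs without d0 replicate 1 (adjusted p = 0.0716 and 0.0843), FMN2 without that library or d3 replicate 2 (up to 0.129), ACTN2 without d3 replicate 2 or d0 replicates 2 or 3 (up to 0.121), TARBP1 without any d0 library or d3 replicates 2 or 3 (up to 0.297), EXO1 without any d0 library or d3 replicates 1 or 3 (up to 0.176), and NR5A2 without 9 of the 12 libraries (up to 0.231). In d28, RGS7 lost its call without d28 replicate 1 (0.0544), BRINP3 without d0 replicate 2 (0.0680), ADSS without d0 replicate 1 or d28 replicate 1 (up to 0.0902), CEP170 without these or d0 replicate 3 (up to 0.0958), FMN2 without d0 replicates 1 or 3 or d28 replicates 1 or 2 (up to 0.114), and GLUL without d0 replicates 2 or 3 or d28 replicates 2 or 3 (up to 0.307). The direction was lower in each of these fits.

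At the edge of the rule, the member nearest to 0 among those lower at both days was NAV1 in the 1q25-q32 block (-0.06 in d28) and MTR in the 1q42-q44 block (-0.22 in d28). Lower on a single day were PTPRC, higher in d3, and XPR1 (0.28), CACNA1E (0.09), HEATR1 (0.14) and OPN3, with higher values in d28. CAMSAP2 was the only member above d0 on both days, by 0.47 ± 0.47 and 0.42 ± 0.47, with normalized counts of 1.497, 14.2 and 12.9 in Mock, 6.22, 4.25 and 7.77 in d0, 10.01, 6.85 and 8.72 in d3 and 8.44, 7.03 and 10.2 in d28. OPN3 had 2.99, 5.16 and 1.85 in Mock, 2.49, 2.84 and 3.88 in d0, 0.77, 0.856 and 0.792 in d3 and 5.28, 7.03 and 5.82 in d28, the lowest counts of any member. No member was called higher in any of the 6 contrasts.

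The comparison of d28 with d3 used samples that chose the blocks. These were chosen as lower than d0 on both days, so a similar level in the 2 groups was partly set by the rule and is a description. Members' medians of the log2 change from d3 to d28 were -0.01 in the 1q25-q32 block and 0.07 in the 1q42-q44 block, beside 0.01 over all genes. No member passed edgeR's adjusted p, beside 0.37% of all genes called in either direction. At an unadjusted p below 0.05, 4 members were lower and 3 higher in d28 (4.68% and 4.15% of all genes). DESeq2 called 0 members (6 lower and 56 higher over all 27579 genes), with no adjusted p for 1 member. A typical standard error was 0.22, and most changes of single members were too small to be detected at this depth. The lowest edgeR adjusted p of all members was that of OPN3 (log2 change of 2.72, adjusted p = 0.0534), which is described under the flagged results. XPR1, a phosphate exporter, had the lowest adjusted p of the 1q25-q32 block with 0.66 ± 0.22, PTPRC had -0.76 ± 0.32, and ARID4B had -0.38 ± 0.18 (adjusted p = 0.232, 0.449 and 0.523).

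Mock cells gave the background level. The labels give them the empty vector pSBTet-GP, while the study also describes an MLL-AF4 construct in that backbone as an ATAC-Seq control, so that the absence of MLL-AF4 in Mock rests on the labels. These contrasts share the d0, d3 and d28 samples with the rule and the Mock samples with each other. From Mock to d0, 0 of 56 members passed the adjusted p of edgeR (0.609% of all genes did in either direction). DESeq2 called 0 members (24 lower and 79 higher over all 27579 genes), with no adjusted p for 18 members. At an unadjusted p below 0.05, 10 were higher in d0 (5.04% of all genes) and 0 lower, the largest being HMCN1 (1.01 ± 0.30, adjusted p = 0.0828) and SWT1 (0.68 ± 0.20, adjusted p = 0.0906), and the block medians were 0.09 and 0.11.

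Below Mock in d3 were 3 members of the 1q25-q32 block and 4 of the 1q42-q44 block by edgeR's adjusted p, beside 0.439% of all genes called lower. These were TOR1AIP1 (-0.54 ± 0.14), LAMC1 (-0.77 ± 0.22) and KCNT2 (-0.89 ± 0.21), and RYR2 (-0.86 ± 0.24), PLD5 (-1.17 ± 0.26), ADSS (-0.75 ± 0.17) and DESI2 (-0.77 ± 0.14). Their edgeR adjusted p were 0.0188, 0.0394, 0.00323, 0.0279, 0.00217, 0.00145 and 2.42e-05. In d28 they were 3 and 3, beside 0.609%. TOR1AIP1 (-0.62 ± 0.14), KCNT2 (-0.93 ± 0.21), PLD5 (-1.20 ± 0.26), ADSS (-0.69 ± 0.16) and DESI2 (-0.92 ± 0.14) were among them again, with GLUL (-0.66 ± 0.17), at adjusted p of 0.00269, 0.00117, 0.00109, 0.00414, 2.96e-08 and 0.0119. The medians were -0.30 and -0.50 in d3 and -0.21 and -0.47 in d28, beside 0.03 over all genes for each day.

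Of these 13 edgeR calls against Mock, DESeq2 did not make those of DESI2 in d3 and d28 (DESeq2 adjusted p = 0.153 and 0.0655). Nor did it call LAMC1 in d3 (0.0695), while it made the other calls. In edgeR fits without each library in turn, only DESI2 in d28 kept its call throughout. KCNT2 lost its calls without Mock replicate 1 (adjusted p = 0.139 and 0.0829), PLD5 without Mock replicate 3 (0.340 and 0.319), and ADSS without Mock replicate 2 (0.0631 and, in d28, up to 0.171, where d28 replicate 1 mattered too). DESI2 in d3 was lost without d3 replicate 2 (0.0606) and TOR1AIP1 in d28 without Mock replicate 2 (0.154). TOR1AIP1 in d3 was lost without d3 replicates 1 or 3 or Mock replicates 1 or 2 (up to 0.284), RYR2 without d3 replicates 2 or 3 or Mock replicates 2 or 3 (up to 0.324), LAMC1 without any Mock library or d3 replicates 2 or 3 (up to 0.222), and GLUL without Mock replicates 1 or 3 or d28 replicates 2 or 3 (up to 0.245). In 8 members, namely TOR1AIP1, QSOX1, KCNT2 and NEK7, and RYR2, RGS7, PLD5 and ADSS, all 6 d3 and d28 samples lay below all 6 d0 and Mock samples, beside 0.573% of all genes. In PLD5 this rests on a gap smaller than the rounding, since d28 replicate 3 and d0 replicate 3 have the same rounded value.

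The lowered stretch of 1q was longer than the blocks. The 2234 placed entries of chromosome 1 were cut in order into 56 runs of mostly 40 genes. From the run that starts at QSOX1 to the end of 1q there were 13 runs, and in 12 of them every d3 and d28 sample lay below every d0 sample. Before QSOX1 this was so in 2 of 43 runs. Against Mock as well as d0, it was 11 of 13 and 0 of 43 runs. The start at QSOX1 follows from the chosen block, and the 13 runs include those of both chosen intervals. The contrast with the 43 runs was therefore partly set by the choice and is a description. The step fell between neighbouring runs: GAS5-AS1 to RPSAP16, which also holds TOR1AIP1 and CEP350 at its end, stood at -0.07 in d3 and -0.07 in d28 on the log2 scale relative to d0, and QSOX1 to RNF2 at -0.40 and -0.37.

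The lowest runs in each interval were TRMT1L to NEK7 (-0.54 in d3 and -0.60 in d28) in the 1q25-q32 interval and CHRM3 to CNST (-0.62 and -0.59) in the 1q42-q44 interval. In the former run Mock was also low, at -0.31. In between, the runs stood at -0.42 (CD55 to BATF3) to -0.11 (ACBD3 to RNA5S4) in d3. The last run, SCCPDH to PGBD2, was at -0.09 and -0.19. Summed, the 303 tested entries between IPO9 and SLC35F3 were at 85.5 ± 1.29% of d0 in d3 and 80.5 ± 1.62% in d28 (SD, n = 3), and the 43 after DESI2 at 85.1 ± 1.07% and 81.0 ± 1.56%. By contrast, 1p was at 105 ± 0.856% and 104 ± 1.01%, and 1q before TOR1AIP1 at 106 ± 2.24% and 104 ± 1.78%. After DESI2 the genes did not all follow the lower sum: 27 of 43 were lower by sign in d3 and 22 of 43 in d28, with medians of -0.12 and -0.08, and the run SCCPDH to PGBD2 did not lie below d0 in every sample. The name of a pair of blocks goes only part of the way, since the runs between the blocks were lower than d0 too. By day, CD55 to BATF3 (-0.42 in d3) and NSL1 to MARC2 (-0.41 in d28) had values near or below those of QSOX1 to RNF2 (-0.40 and -0.37) and PTPRC to SYT2 (-0.34 and -0.32) in the 1q25-q32 interval, and these differences between runs were not tested.

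**Figure D4:**
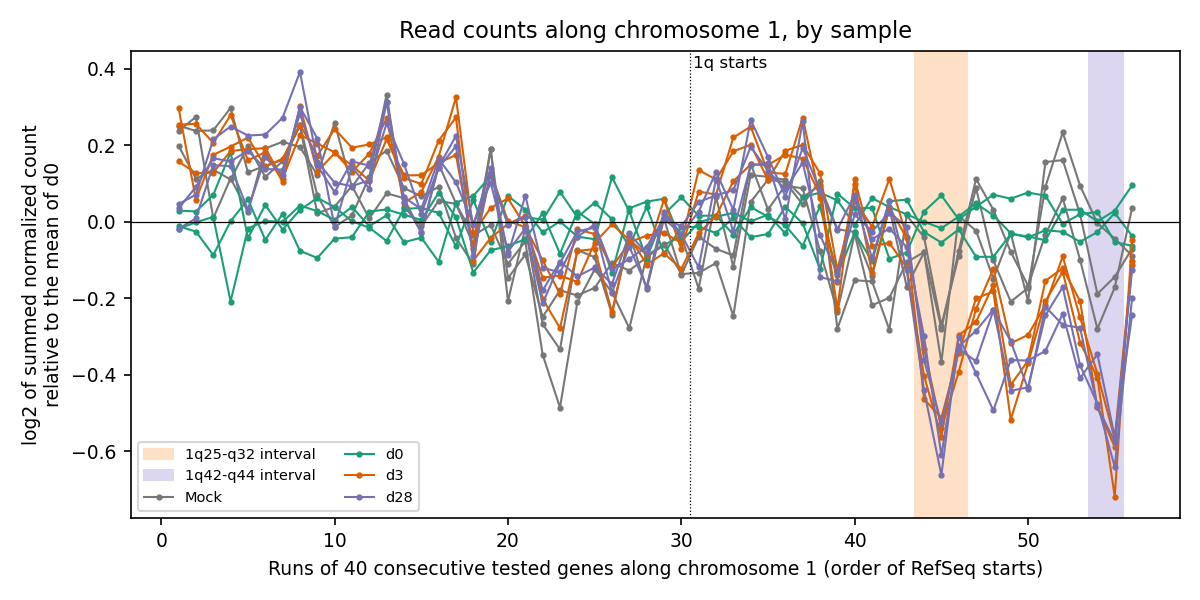
log2 of summed normalized counts relative to the mean of d0 (vertical axis) in 56 runs of up to 40 consecutive tested genes along chromosome 1 (horizontal axis), with a line for each of the 12 samples; shaded runs belong mostly to the intervals of the blocks. All d3 and d28 lines step down at the start of the 1q25-q32 interval, from -0.07 to -0.40 and -0.37 on average, and are lowest at -0.54 to -0.62 within the intervals.

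The genes just outside the blocks were taken as flanks after the profile was seen. Of the 10 nearest genes before TOR1AIP1 that averaged 10 or more normalized counts, RASAL2 to TOR1AIP2, the median log2 change was -0.05 in d3 and -0.01 in d28. The 10 after IPO9, LMOD1 to PPP1R12B, had -0.35 and -0.44, and the 10 before SLC35F3, GNPAT to KCNK1, had -0.25 and -0.25. In each of these 3 flanks 0 of 10 genes were called. After DESI2, COX20 to ZNF695, it was -0.09 and -0.23, and 2 of these 10, COX20 and HNRNPU (named after their values were seen), were called lower on at least 1 day.

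Summed, genes of the intervals that are not members were also lower than d0 on both days. The rule chose these blocks on the same contrasts, so this too is a description. The 76 tested non-members of the 1q25-q32 interval summed to 72.0 ± 0.956% of d0 in d3 and 72.7 ± 1.58% in d28, and the 39 of the 1q42-q44 interval to 69.1 ± 3.72% and 70.6 ± 1.88%. Mock was also below d0, at 90.5 ± 0.939% and 90.9 ± 5.57% in these intervals. By sign, 67 of 76 and 29 of 39 non-members were lower than d0 in d3 and 59 of 76 and 32 of 39 in d28. Among members these were 31 of 33 and 23 of 23 in d3 and 30 of 33 and 21 of 23 in d28. Among the non-members with the most reads were TROVE2 and GLRX2 in the former interval and TBCE, B3GALNT2 and GGPS1 in the latter. GLRX2, a mitochondrial glutaredoxin, had means of 67.8 ± 8.18 in d0, 37.9 ± 5.78 in d3 and 43.8 ± 5.05 in d28 (SD, n = 3), a log2 change of -0.83 ± 0.18 and -0.66 ± 0.18 (edgeR adjusted p = 0.00285 and 0.02). TBCE, a tubulin folding cofactor, had 85.7 ± 6.74, 65.5 ± 4.79 and 55.5 ± 5.51, and B3GALNT2, a glycosyltransferase, had 45.8 ± 5.24, 26.6 ± 2.30 and 31.4 ± 9.24. TROVE2 (-0.36 in d3) and GGPS1 (-0.51) were lower than d0 in mean and not called. Mock means were 74.0 in TROVE2, 51.6 in GLRX2, 79.2 in TBCE, 54.6 in B3GALNT2 and 28.3 in GGPS1. The GGPS1 means of 31.0 in d3 and 36.0 in d28 lay above its Mock mean. Among these genes only B3GALNT2 was called lower than Mock (edgeR adjusted p = 6.02e-04 in d3 and 0.0331 in d28).

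Among the 22 other chromosomes tested as a whole, summed counts in d3 ran from 91.9% of d0 (chromosome 4) to 129% (chromosome 15), and in d28 from 89.8% to 125% of the same chromosomes. Each of the 4 sums of members and each of the 4 of non-members lay below the lowest of these. The blocks were chosen as lower than d0, so this was partly set by the choice. A whole chromosome also averages over more genes than a block.

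Within the 1q25-q32 block the members differed from each other little more than their errors. Within the 1q42-q44 block the spread was wider relative to the errors. In the 1q25-q32 block, 32 of 33 members had a d3 change within 2 standard errors of the block median, and 30 of 33 in d28. In the 1q42-q44 block these were 20 of 23 and 18 of 23. By gene length, members of the 1q42-q44 block had d3 medians of -0.51 under 50 kb, -0.63 from 50 to 200 kb and -0.79 over 200 kb, and d28 medians of -0.55, -0.65 and -0.75. In the 1q25-q32 block these were -0.37, -0.40 and -0.45 in d3 and -0.44, -0.37 and -0.38 in d28. Protein-coding genes outside chromosome 1 had 0.08, -0.02 and -0.10 in d3 for the same classes. Across members, Spearman's rho of gene length with the d3 change was -0.21 over the 33 genes of the 1q25-q32 block and -0.38 over the 23 of the 1q42-q44 block, and with the d28 change 0.03 and -0.44. Over 15636 protein-coding genes elsewhere it was -0.13 and -0.03, all from the same libraries and given as a description.

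Starts of 51 members were in the RefSeq promoter table. They held a median of 24 CG pairs in the 1q25-q32 block (29 genes) and 34 in the 1q42-q44 block (22 genes), beside 21 over 22198 protein-coding starts. GGGCGG on either strand was in 22 of 29 and 17 of 22 windows, beside 56.3% of protein-coding starts and 45.0% of all 35116. CCAAT was in 15 and 6 windows (34.6% of all), TATAAA in 3 and 0 (11.5%) and CACGTG in 4 and 4 (7.26%). The number of CG pairs had a rho of 0.13 with the d3 change in the 1q25-q32 block and -0.32 in the 1q42-q44 block, of opposite sign. CG-rich windows such as those of RGS7 and DESI2 and the CG-poor window of BRINP3, shown above, belonged to members that fell.

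Partners of 4 members lie mostly elsewhere in the genome and show what other genes of the same complexes did. Of 5 other genes of the PAF1 complex of CDC73, 0 were called in d3 or d28 against d0, and their d3 changes ran from 0.21 to 0.66 with a lowest edgeR adjusted p of 0.499. Their d28 changes ran from -0.08 to 1.25 with a lowest edgeR adjusted p of 0.0838. Of 18 genes of Polycomb repressive complex 1, the complex of RNF2, 1 was called higher in d3 (CBX8, chosen after its value was seen, 0.83) and 0 in d28, with a median of 0.17 in d3. Of 5 genes of the TOM complex of TOMM20, 1 was called higher in d3 (TOMM22, likewise, 1.14) and 0 in d28. Of 16 citric acid cycle genes beside FH, 0 were called on either day, with medians of 0.06 and 0.07. Beside these, 0.598% of all genes were called higher in d3. No gene of the 4 lists was called lower than d0.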

How the data were processed

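ATAC-Seq libraries of 12 HEK293T samples, 4 groups of 3, were measured as read counts per gene. The authors deposited 1 table of raw counts for 52889 entries. The submitters' processing notes name bcl2fastq, Bowtie2, HTSeq and GRCh38. The interval counted per gene, the treatment of duplicates and any shift of reads are not given in the sources used here, so that promoter and gene body reads cannot be told apart.

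Counts were fitted with the quasi-likelihood F test of edgeR 4.0.16 (R 4.3.3) on all 12 samples, with TMM factors and Benjamini-Hochberg adjustment over the 27579 entries for which 1 group or more averaged over 2 normalized counts, and an adjusted p below 0.05 was a call. The study's tool, DESeq2 (version 1.42.0 here), was an alternative. No replicate block was used in the test. The pipeline was tested on simulated data. Wilson intervals are at 95% and cover counting error only. Positions, promoters and synonyms are from RefSeq GRCh38.p14, to which 34401 entries matched by symbol or synonym. Runs of 40 genes along chromosome 1 and the flanks are descriptions, since no test was made of them.

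The members and lists were chosen with earlier results of these data known. Named with values were the 10 and 8 members of the blocks with the highest mean normalized count, CDC73, RNF2, PTPRC, GLUL, ASPM, FH, EXO1, TOMM20 and ARID4B, the members called in contrasts with Mock or between d3 and d28, the 3 non-members with the most reads per interval, and members at the edge of the rule. Of these, 1 non-member is not reported here. NR5A2, BRINP3, RGS7, TARBP1, ACTN2, XPR1, HMCN1 and CAMSAP2 were named for their values. Alternatives were other scalings, filters, tools and groups, the block, and leaving out each library.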

Additional observations from a re-analysis of the deposited data

Results flagged for a closer look

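OPN3, an opsin gene of the 1q42-q44 block, differed between the days: its log2 change from d0 was -1.78 ± 0.94 in d3 and 0.94 ± 0.64 in d28 (SE), and the difference between the days, d28 minus d3, was 2.72 ± 0.73. Every d3 sample lay below, and every d28 sample above, every d0 sample. The edgeR adjusted p of the difference was 0.0534 on all 4 groups and 0.0402 when only d3 and d28 were fitted. The normalized counts behind it were 0.77 to 0.86 in d3, 2.49 to 3.88 in d0 and 5.28 to 7.03 in d28, the lowest of the 56 members, and the cause was not tested. The d3 values are the smallest that these libraries can show above no reads. The separation of d3 from d0 therefore carries little information.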

How the results depend on the processing

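Counts of called members depended on the processing and their medians against all genes did not reverse in d3 or d28 against d0. With library sizes in place of TMM factors, the counts lower in d3 were 0 (1q25-q32) and 4 (1q42-q44), in d28 30 and 22, and those in either direction 49 between d3 and d28, 2 between Mock and d0, 18 between Mock and d3 and 55 between Mock and d28. Of all 30983 genes tested with library sizes, 25 were called lower in d3 and 12254 in d28 against d0. Lower calls over all genes were 16059 in d28 against d3. Against Mock they were 1355 in d0, 649 in d3 and 17846 in d28. This scaling lets the mitochondrial share in: it moved the median log2 change of all genes to 0.10 in d3 and -0.88 in d28 against d0, and block medians relative to that were -0.42 and -0.71 in d3 and -0.43 and -0.68 in d28. With filterByExpr the 1q25-q32 counts were 3 in d3 and 4 in d28, and with no filter 0 and 1, with 4 calls between Mock and d3. DESeq2 gave 0 and 5 in d3 for the blocks, with no adjusted p for 3 of 56 members, and 0 for the 1q25-q32 block in d28, where 30 of 56 members (BRINP3 among them) had none and so were not counted either way. Over all 27579 genes, DESeq2 called 24 lower in d3 and 63 lower in d28 against d0. Fits of only the 2 groups compared gave 4 for the 1q25-q32 block in d28 and 1 between d3 and d28. No pairing of the samples by replicate number was seen (mean correlations of deviations of -0.07 to 0.03 over 8277 genes). Counting error is large at this depth, so pairing was not excluded. With the replicate block, the count of the 1q25-q32 block in d3 was 0, and no other count moved by over 1.5 times. Leaving out 1 library at a time gave 0 to 1 and 4 to 9 calls in d3 and 0 to 2 and 3 to 9 in d28 for the blocks, 0 to 0 between d3 and d28, 0 to 2 between Mock and d0, 3 to 7 between Mock and d3 and 4 to 6 between Mock and d28. Shares over all genes are not given for the other filters, the fits of 2 groups or those without 1 library. Nothing is read from those counts. The share of nuclear counts was 74.3% of d0 in d3 and 74.9% in d28 for members of the 1q25-q32 block and 61.8% and 63.9% for the 1q42-q44 block, and 70.1%, 71.8%, 67.3% and 69.7% for the non-members of the same intervals. Depth limits single members: 30 reads a sample leave standard errors near 0.23 on the log2 scale.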
